A study of Mus musculus with 16 samples.

Results

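The immunity-related GTPases described here are 6 mouse genes, Iigp1 (gene ID 60440), Tgtp1 (21822), Tgtp2 (100039796), Igtp (16145), Irgm1 (15944) and Irgm2 (54396). They were taken as the rows of the deposited count tables with these symbols, and they are 6 of the 18635 genes listed in any table. All 6 were measured in every one of 16 RNA sequencing libraries. The libraries are labelled as mouse tumours grown from cancer lines implanted into syngeneic mice, and the series asks how loss of 53BP1, a DNA double-strand break repair factor encoded by Trp53bp1, bears on the immune response. The groups were ID8 Trp53bp1 knockout (n = 3), ID8 wild type (n = 3), KPC Trp53bp1 knockout (n = 5) and KPC wild type (n = 5). ID8 derives from mouse ovarian surface epithelium, and KPC cells from a mouse model of pancreatic cancer. The labels name 1 knockout line for each parent line, so the knockout and a difference between clones cannot be told apart. They give no age, sex or treatment of the mice. The extraction protocol speaks of cells although the samples are labelled as tumours, and separate numbers are called biological replicates. The ID8 libraries go against the tumour label in that markers of host blood, immune and endothelial cells were absent or far lower than in KPC, as given below.

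Immunity-related GTPases are interferon-inducible proteins that defend mouse cells against pathogens living inside membrane-bound vacuoles, such as Toxoplasma. The effector proteins, among them those of Iigp1 (Irga6) and of Tgtp1 and Tgtp2 (both Irgb6), load onto the vacuole membrane and disrupt it. The regulatory proteins of Irgm1, Irgm2 and Igtp (also called Irgm3) sit on the cell's own membranes and hold the effectors inactive there. Transcription of the family is driven by interferon-gamma, in part through the factor IRF1, and by type I interferon.

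The promoters of the members on chromosome 11 are shown because they carry the letters of interferon-responsive elements close to the start of the gene. Promoter sequences of 300 bases around the start of the gene (RefSeq, GRCm38.p6) were matched by gene ID for 5 of the 6 members, all but Iigp1. The first motif searched, on both strands, was GAAA followed by 2 bases of any kind and again GAAA, the core of the interferon-stimulated response element (ISRE). The second was TTCNNNGAA, the core of the gamma-activated site (GAS), whose letters read the same on both strands. The whole promoters were searched. The windows of 60 bases below were cut around the first ISRE-type match, so that the matches line up there whatever their distance from the start. They are written 5′ to 3′ on the gene's strand, and capitals mark every match to either motif.
Tgtp1: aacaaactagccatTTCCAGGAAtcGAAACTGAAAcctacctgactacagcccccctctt
Tgtp2: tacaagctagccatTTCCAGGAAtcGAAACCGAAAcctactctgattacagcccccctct
Igtp: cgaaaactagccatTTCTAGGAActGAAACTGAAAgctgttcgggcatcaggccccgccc
Irgm2: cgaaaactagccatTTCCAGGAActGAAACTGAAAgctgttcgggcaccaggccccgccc
Irgm1: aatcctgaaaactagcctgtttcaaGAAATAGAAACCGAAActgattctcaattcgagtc

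The windows lie at chr11:48992289-48992348 (minus strand) for Tgtp1, chr11:49064248-49064307 (minus strand) for Tgtp2, chr11:58199497-58199556 (plus strand) for Igtp, chr11:58214888-58214947 (plus strand) for Irgm2 and chr11:48871416-48871475 (minus strand) for Irgm1. In Tgtp1, Tgtp2, Igtp and Irgm2 the GAS-type match stood 2 bases before the ISRE-type match, so the matches shared no base. Irgm1 held 2 overlapping ISRE-type matches, and the GAS-type letters were not in its promoter. Counted from the start of the gene, the ISRE-type match began at -77 in Tgtp1, -70 in Tgtp2, -34 in Igtp, -64 in Irgm2, and -30 and -24 in Irgm1. Of 2 other family genes searched, Gm12250 held both motifs and Ifi47 neither. Of 32851 mouse promoters of 300 bases, 3.44% held an ISRE-type match, 8.3% a GAS-type match and 0.454% both. The windows of Igtp and Irgm2 were alike at 58 of 60 bases, and those of Tgtp1 and Tgtp2 at 44 of 60 compared position by position. These matches describe letters only, and no binding was measured.

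The libraries held between 17902867 and 19727536 counts, so that 3 counts correspond to 0.152 to 0.168 CPM, the level scaled to library size that is used throughout. Trp53bp1 averaged 18.8 ± 0.606 CPM in ID8 knockout and 47.4 ± 2.80 CPM in ID8 wild-type libraries (SD, n = 3 each), and 33.7 ± 4.02 CPM in KPC knockout and 50.4 ± 2.95 CPM in KPC wild-type libraries (SD, n = 5 each). Every ID8 library had 0 counts of the leukocyte, macrophage, T cell, endothelial and red cell markers Ptprc, Adgre1, Cd3e, Cdh5 and Hbb-bs, and KPC libraries had all of them. Other markers were detected, since 5 of 10 macrophage and 2 of 6 endothelial markers had 0 counts in each ID8 genotype. The endothelial markers summed to 1.79 to 2.08 CPM in ID8 knockout and 2.32 to 2.74 CPM in ID8 wild type. In KPC knockout and wild type they summed to 322 to 439 and 271 to 421 CPM. The 6 epithelial markers were detected in both lines, but Epcam averaged 0.859 CPM in ID8 knockout and 3.29 CPM in ID8 wild type, against 419.7 and 176.7 CPM in KPC knockout and KPC wild type. Of the ovarian surface and mesothelial markers, Wt1 was far higher in ID8 (757 CPM in knockout, 622.0 CPM in wild type) than in KPC (1.08 and 0.247 CPM), whereas Msln was lower in ID8 (367.0 and 383 CPM) than in KPC (1437 and 1279 CPM). In tumour RNA, fewer cells of a type and less RNA per cell cannot be told apart.

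In ID8, 5 of the 6 GTPase genes rose with Trp53bp1 knockout and none fell. The mean level in knockout was 1.75-fold (Irgm1) to 2.81-fold (Igtp) that of wild type for 4 of them and higher still for Iigp1, and Tgtp2 alone did not pass. The test was edgeR's quasi-likelihood test on counts, with p-values adjusted by Benjamini-Hochberg over all 11933 genes tested and a threshold of 0.05. In this line 25.4% of all genes tested passed as higher and 50.8% in either direction. All levels below are CPM scaled by the TMM method over the 16 libraries. They serve to compare libraries for 1 gene and not to compare genes, since they are not divided by transcript length.

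Among the effectors, Iigp1 was nearly absent from ID8 wild-type libraries. It had 25, 24 and 19 counts in the knockout libraries and 1 count in each wild-type library. Summed over the groups this is 68 against 3 counts, a ratio of 23.3 with an exact 95% counting interval of 7.65 to 116. The model gave it a log2 fold change of 4.31 (approximate SE 0.470, edgeR adjusted p = 1.17e-06), and the gene passed the filter on low counts only through the knockout libraries. Tgtp1 had 4.06, 3.76 and 4.27 CPM in knockout libraries and 1.18, 1.67 and 1.46 CPM in wild-type libraries. Its groups did not overlap, with a log2 fold change of 1.485 (SE 0.178, edgeR adjusted p = 3.44e-06). How far this value depends on the division of reads between Tgtp1 and its near-identical neighbour Tgtp2 was not tested. The 2 genes summed gave 0.45 (edgeR adjusted p = 0.00047), a sum in which Tgtp2 held most of the counts. Tgtp2 had 14.4, 12.5 and 11.6 CPM in knockout libraries and 10.7, 10.6 and 11.7 CPM in wild-type libraries. The lowest knockout library fell below the highest wild-type library, and the log2 fold change of 0.23 (SE 0.0981) missed the threshold (edgeR adjusted p = 0.0588).

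The 3 regulators rose in ID8 knockout, each without overlap of the groups. Igtp had 11.1, 11.2 and 11.6 CPM in knockout libraries and 3.93, 3.51 and 4.59 CPM in wild-type libraries, a log2 fold change of 1.496 (SE 0.113, edgeR adjusted p = 1.6e-08). Irgm2 had 29.95, 26.55 and 28.3 CPM in knockout libraries and 9.85, 10.3 and 12.9 CPM in wild-type libraries. Every knockout library was more than 2 times the highest wild-type library for both genes. The log2 fold change of Irgm2 was 1.365 (SE 0.0943, edgeR adjusted p = 5.55e-09). Irgm1 had 74.6, 71.5 and 76.3 CPM in knockout libraries and 44.35, 41.3 and 41.7 CPM in wild-type libraries. Its log2 fold change of 0.81 (SE 0.0556, edgeR adjusted p = 5.02e-09) was the smallest of the 5 called. Groups did not overlap for 5 of 6 members, where 28.6% of all genes tested had knockout libraries wholly above wild type.

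The ID8 calls rest on a line fitted alone, whose libraries varied little (biological coefficient of variation 5.08%). Fitted together with the more variable KPC libraries, 0 of 6 members passed in ID8 by edgeR, with a log2 fold change of Igtp of 1.49 and an SE of 0.804 in place of 0.113 (adjusted p = 0.239). In that joint fit 0 of the other family genes, 5 guanylate-binding protein genes and 2 interferon signalling genes described below passed in ID8. In ID8, 12 of 13 listed T cell and NK cell markers had 0 counts in each genotype, and their summed level was 0 to 0.106 CPM in knockout and 0 to 0.054 CPM in wild-type libraries. The summed macrophage markers were 4.58 to 6.37 CPM in knockout and 12.4 to 14.7 CPM in wild-type libraries. Epithelial and mesothelial markers also differed with genotype. The epithelial markers summed to 2840 to 2960 CPM in knockout and 3720 to 4040 CPM in wild-type libraries, with 5 of 6 lower by edgeR, and the mesothelial markers to 4740 to 5160 CPM and 3320 to 3630 CPM, with 3 of 6 higher and 2 lower. Of all genes tested 25.4% passed as higher and 25.5% as lower. The part of these cell markers in the members' levels was not tested. The interferon-gamma gene Ifng had 0 counts in all 6 ID8 libraries, which allows at most 3 counts per library.

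**Figure D1:**
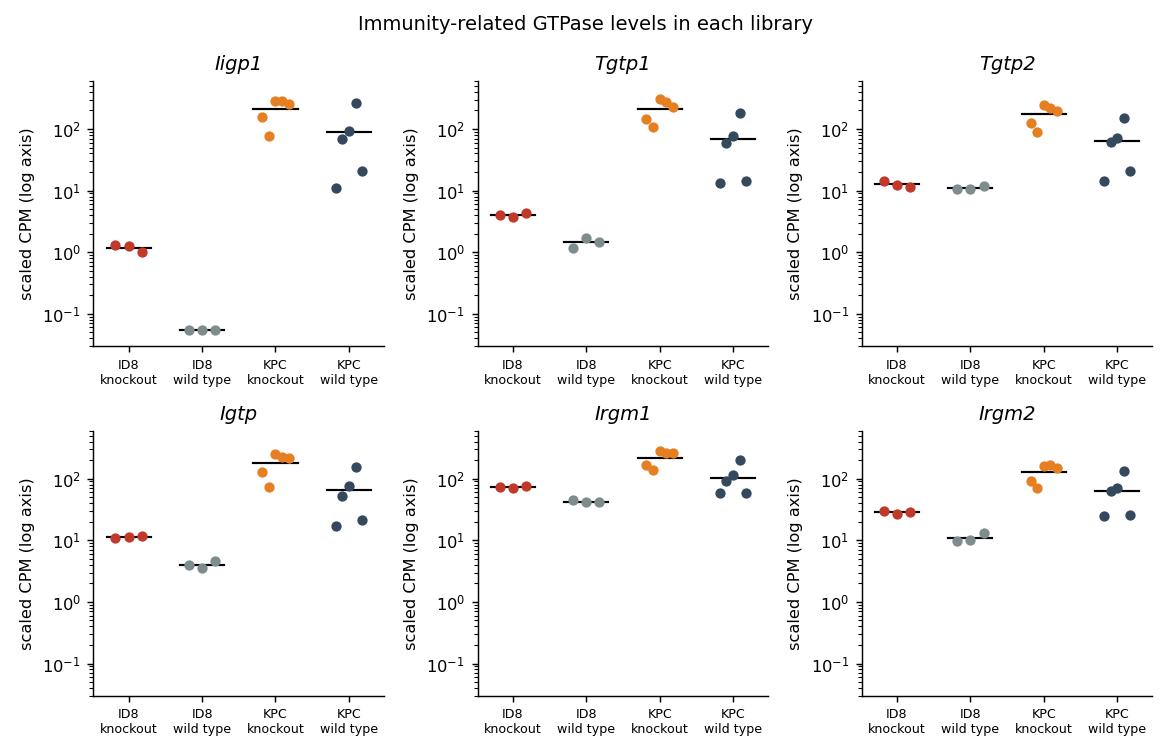
Scaled CPM (log axis) of each GTPase gene in every library, with 1 point per library and a bar at the group mean, for ID8 knockout and wild type (n = 3 each) and KPC knockout and wild type (n = 5 each). The ID8 groups are tight and apart for every gene but Tgtp2, while KPC wild-type libraries spread from 10.9 to 261.8 CPM for Iigp1 and reach into the knockout range.

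In KPC, mean levels of the 6 members were 2.02-fold (Irgm2) to 3.06-fold (Tgtp1) as high in knockout as in wild-type tumours, but the wild-type libraries varied so widely that 0 of 6 passed by edgeR. At an unadjusted p under 0.05 there were 4 (Irgm1, Tgtp2, Igtp and Tgtp1), where 4637 of all 14283 genes tested were. DESeq2 called 1 of 6 (Irgm1, adjusted p = 0.0379), and limma-voom with sample quality weights called 6 of 6. The share of all genes called was not counted for these tools. With limma-voom the log2 fold changes were 1.46 (Irgm1) to 2.65 (Tgtp1), larger than by edgeR. How far this rests on the weight given to single libraries was not tested. In this line 6.67% of the 14283 genes tested passed as higher by edgeR, 7.01% as lower and 13.7% in either direction. The highest wild-type library was 3.46 to 24.1 times the lowest, depending on the gene, against 1.98 to 3.70 times among knockout libraries. No member had groups that did not overlap, where 5.57% of genes tested had knockout libraries wholly above wild type.

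Among the effectors, Iigp1 had 155.1, 78.3, 289.5, 289.8 and 258.5 CPM in KPC knockout libraries 1 to 5, and 10.9, 67.8, 94.1, 261.8 and 20.4 CPM in KPC wild-type libraries 1 to 5. Wild-type replicate 4 exceeded 3 of 5 knockout libraries. Its log2 fold change came to 1.24 (SE 0.784, edgeR adjusted p = 0.3). Tgtp1 had 145.2, 109.0, 310.9, 277.5 and 225.7 CPM in knockout libraries and 13.1, 59.7, 78.3, 184.0 and 14.6 CPM in wild-type libraries. All 5 knockout libraries lay above the wild-type libraries other than replicate 4. The log2 fold change of Tgtp1 was 1.61 (SE 0.703, edgeR adjusted p = 0.148). Tgtp2 had 125.1, 89.85, 247.7, 218.3 and 196.6 CPM in knockout libraries and 14.4, 60.5, 72.2, 150.1 and 20.4 CPM in wild-type libraries, a log2 fold change of 1.46 (SE 0.599, edgeR adjusted p = 0.126). Its libraries stood in the same pattern as those of Tgtp1.

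Among the regulators, Igtp had 127.8, 73.7, 252.4, 222.9 and 216.3 CPM in KPC knockout libraries and 17.0, 52.8, 75.4, 156.9 and 21.02 CPM in KPC wild-type libraries. Wild-type replicate 4 again lay above knockout replicates 1 and 2, with a log2 fold change of 1.465 (SE 0.612, edgeR adjusted p = 0.132). Irgm1 had 165.8, 140.4, 277.5, 256.5 and 260.6 CPM in knockout libraries and 57.9, 90.2, 114.4, 200.3 and 58.2 CPM in wild-type libraries. It came closest to the threshold, with a log2 fold change of 1.07 (SE 0.353, edgeR adjusted p = 0.068). Irgm2 had 91.7, 71.2, 162.7, 164.8 and 146.7 CPM in knockout libraries and 25.1, 63.25, 69.35, 133.0 and 25.4 CPM in wild-type libraries, a log2 fold change of 1.01 (SE 0.468, edgeR adjusted p = 0.168). Wild-type replicate 4 exceeded knockout replicates 1 and 2 for this gene as well.

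**Figure D2:**
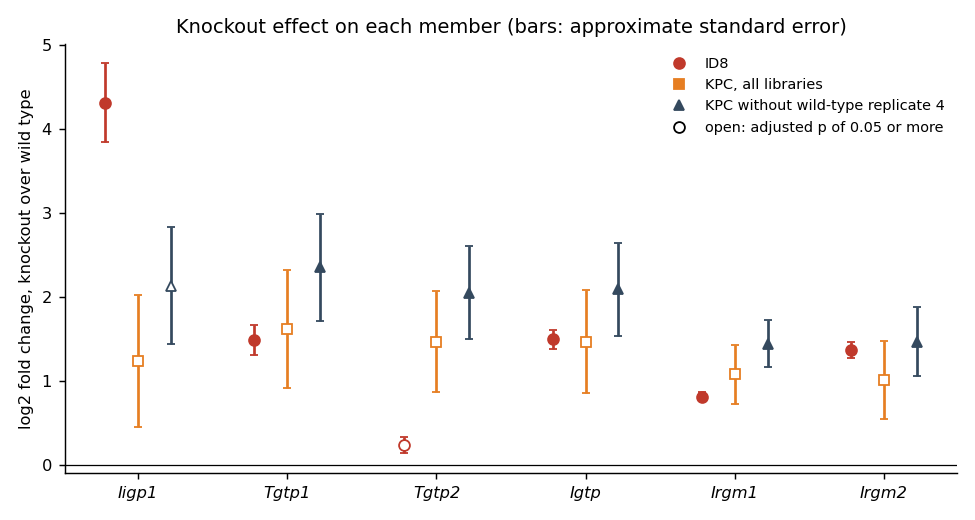
Log2 fold change of knockout over wild type for each GTPase gene in ID8, in KPC with all 10 libraries, and in KPC without wild-type replicate 4, with bars of 1 approximate standard error and filled symbols for an edgeR adjusted p under 0.05. In KPC every symbol is open with all libraries, and without wild-type replicate 4 all but Iigp1 (log2 fold change 2.13) are filled.

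By edgeR the KPC calls changed with 1 library, wild-type replicate 4, the highest wild-type library for all 6 members. Leaving it out lowers the wild-type mean of these genes by construction, so the calls without it are a description only. Without wild-type replicate 4, 5 of 6 members passed by edgeR, with log2 fold changes of 1.44 (Irgm1, adjusted p = 0.00879) to 2.35 (Tgtp1, adjusted p = 0.0345), while Iigp1 had 2.13 (adjusted p = 0.0645). Leaving out any other KPC library left 0 members called. The 6 genes ordered the wild-type libraries identically, with replicate 4 highest, then 3, 2 and 5, and replicate 1 lowest. In all 6, knockout replicate 2 was the lowest and replicate 1 the next of its group. Markers of host immune cells also differed among these libraries. The 13 listed T cell and NK cell markers summed to 71.2 to 135 CPM in knockout libraries and to 12.9 to 41.0 CPM in wild-type libraries 1, 2, 3 and 5, with 107 CPM in wild-type replicate 4. Of these markers 3 of 12 tested passed as higher in knockout by edgeR, the cytotoxic granule genes Gzma, Gzmb and Prf1, where 6.67% of all genes did. None of the markers was at 0 in either genotype. Ifng ranged from 0.105 to 0.972 CPM in knockout and from 0.0528 to 0.463 CPM in wild-type libraries, with its wild-type maximum in replicate 4. The macrophage markers summed to 3210 to 5250 CPM in knockout and 1980 to 4260 CPM in wild-type libraries, again with the wild-type maximum in replicate 4. By edgeR 0 of 10 passed, and 8 had an unadjusted p under 0.05, as did 4637 of all 14283 genes tested. The epithelial markers summed to 9710 to 11900 CPM in knockout and 5960 to 6960 CPM in wild-type libraries, with 5 of 6 higher by edgeR and no overlap of the sums. The endothelial markers summed to 322 to 439 CPM in knockout and 271 to 421 CPM in wild-type libraries. For the fibroblast markers the sums were 15000 to 22500 and 12100 to 20600 CPM. Wild-type replicate 4 had the wild-type maximum of both of these lists as well. The part of immune, endothelial, fibroblast and epithelial cell content in the members' levels was not tested.

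Skeletal muscle transcripts also varied among KPC libraries. The 10 muscle markers summed to 19.3 to 6320 CPM in knockout and 580 to 31800 CPM in wild-type libraries. With a muscle score as a covariate 0 of 6 members passed by edgeR, with log2 fold changes of 1.04 (Irgm2) to 1.59 (Tgtp1). Without the 4 libraries whose muscle actin gene Acta1 exceeded 1000 CPM (knockout replicates 2 and 5, and wild-type replicates 2 and 4), 4 of 6 passed (Igtp, Irgm1, Irgm2 and Tgtp2). That setting removes both the highest wild-type library (replicate 4) and the lowest knockout library (replicate 2) of all 6 members. A larger difference between the genotypes therefore follows in part from the libraries left out.

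**Figure D3:**
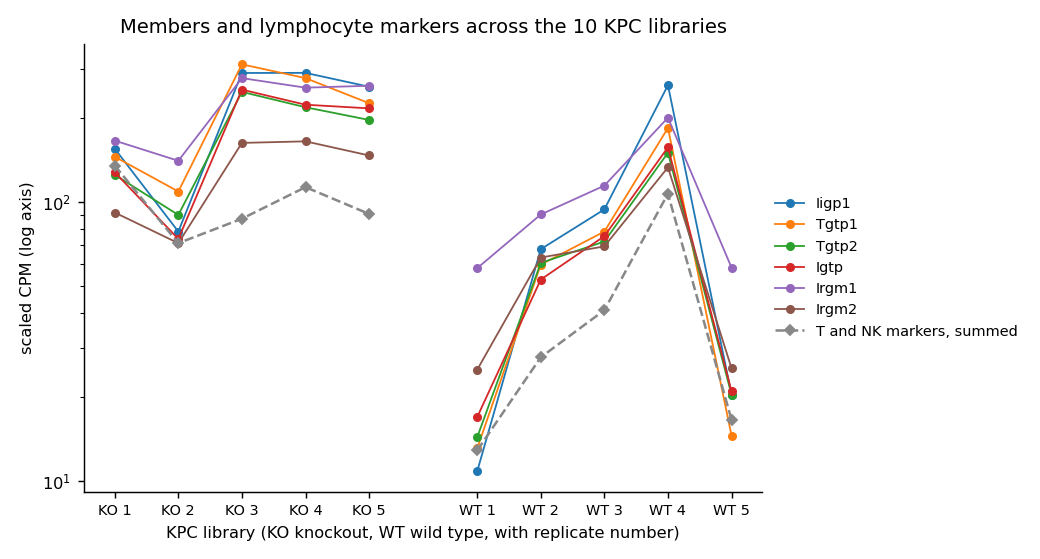
Scaled CPM (log axis) of the 6 GTPase genes and of the summed T cell and NK cell markers in each KPC library, knockout (KO) left of wild type (WT), with lines that only join the values of 1 gene or list within a genotype. The profiles of the 6 genes run nearly in parallel, and in wild-type replicate 4 Iigp1 reaches 261.8 CPM and the summed markers 107 CPM.

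The knockout effect on the members was not shown to differ between the lines. In the interaction test over all 16 libraries 0 of 6 passed by edgeR, where 21.8% of 14921 genes passed. None of the 6 had an unadjusted p under 0.05, where 5077 of all genes tested did. DESeq2 called 0 and limma-voom 1 (Tgtp2, log2 difference 2.06, adjusted p = 0.0438). By edgeR the log2 change of Tgtp2 was larger in KPC by 1.24 (SE 0.878, adjusted p = 0.359). The difference for Iigp1 was -3.07 (SE 3.14, adjusted p = 0.555). For Igtp (-0.02, SE 0.891), Irgm1 (0.28, SE 0.497), Irgm2 (-0.34, SE 0.679) and Tgtp1 (0.13, SE 1.32) the adjusted p was 0.783 or more. A p above the threshold does not show that the lines respond alike, and the standard errors are large beside these differences.

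By mean level all 6 members had the same order of groups, KPC knockout highest, then KPC wild type, ID8 knockout and ID8 wild type. Neighbours in that order were not always apart. KPC knockout and KPC wild type overlapped for every member. KPC wild type and ID8 knockout overlapped for Irgm1, Irgm2 and Tgtp2, and did not for Iigp1, Igtp and Tgtp1. ID8 knockout and ID8 wild type overlapped for Tgtp2 only. The mean level in KPC wild type was 1.41 times that in ID8 knockout for Irgm1, 5.72 times for Igtp, 17.4 times for Tgtp1 and 76.5 times for Iigp1. The lines differ in host cell content as given above, and no test between lines was made.

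The split between Tgtp1 and Tgtp2 is uncertain. Their longest annotated transcripts (GENCODE M21) were alike at 99.3% of aligned bases and shared a run of 1040 bases, and 14 of 16 libraries had deposited values that were not whole. Of the reads assigned to the pair, Tgtp1 took 22.1% to 26.8% in ID8 knockout and 10.2% to 13.6% in ID8 wild type, and 53.4% to 56.0% in KPC knockout and 41.6% to 55.1% in KPC wild type. Summed as 1 gene, the pair rose in ID8 by a log2 fold change of 0.45 (SE 0.0877, edgeR adjusted p = 0.00047) and had 1.54 in KPC (SE 0.651, edgeR adjusted p = 0.135). Igtp and Irgm2, direct neighbours on chromosome 11, shared a run of 165 bases, and values that were not whole occurred in 15 of 16 libraries for both. Irgm1 had whole values in all libraries, and Iigp1 in all but 1.

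Other genes of the family followed the members in part. In ID8, 4 of 6 tested passed as higher and 1 as lower, where 25.4% and 25.5% of all genes did. The median log2 fold change was 0.34, beside 0.0062 over all genes tested and 1.42 over the 6 members. Ifi47 (Irgd), the neighbour of Tgtp2, averaged 83.3 ± 1.36 CPM in ID8 knockout and 49.2 ± 1.61 CPM in ID8 wild type (SD, n = 3 each), a log2 fold change of 0.76 (SE 0.0515, edgeR adjusted p = 3.89e-09). The 9930111J21Rik1 and 9930111J21Rik2 genes rose by 0.34 and 0.53 on the log2 scale. Irgq, a quasi-GTPase of the family that lacks an intact nucleotide-binding site, rose by 0.34. F830016B08Rik had a change of 0.12 that did not pass (edgeR adjusted p = 0.392). Irgc1, whose product is known from testis, was lower at 16 counts over the knockout and 40 over the wild-type libraries, a call that was lost by DESeq2 (adjusted p = 0.0518) and without knockout replicate 3 (edgeR adjusted p = 0.0687). Irgc1 passed the filter on low counts only through the wild-type libraries.

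Several family members were too low in ID8 to be tested. Gm4951 and Gm4841, neighbours of Iigp1 on chromosome 18, had 29 and 21 counts over the knockout libraries and 1 and 3 counts over the wild-type libraries. The ratios were 29.8 (exact 95% counting interval 4.94 to 1220) and 7.2 (2.15 to 37.7). Gm12250 (Irgb10), an effector that also acts on bacteria, had 17 and 5 counts, a ratio of 3.5 (1.24 to 12.1). These intervals cover counting error only. Gm5431 had 11 and 16 counts, a ratio of 0.707 (0.297 to 1.62).

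In KPC 0 of 9 other family members passed by edgeR (2 at an unadjusted p under 0.05, Ifi47 and Gm5431, with 1 called by DESeq2 and 2 by limma-voom), and 3 passed without wild-type replicate 4. Of all 14283 genes tested, 4637 had an unadjusted p under 0.05 by edgeR. Ifi47 averaged 119 ± 34.5 CPM in knockout and 51.4 ± 33.9 CPM in wild type (SD, n = 5 each), and Gm12250 averaged 21.6 ± 9.39 and 9.86 ± 9.44 CPM. Their log2 fold changes were 1.21 and 1.13 (edgeR adjusted p = 0.0804 and 0.221). Gm4951 had 0.87 and Gm4841 0.51. F830016B08Rik, from the same cluster as Iigp1, had -0.49 (SE 0.271, edgeR adjusted p = 0.232), 9930111J21Rik1 -0.30, 9930111J21Rik2 0.27 and Gm5431 0.64. Irgq was at 40.4 ± 5.67 CPM in knockout and 39.9 ± 3.65 CPM in wild type, a log2 fold change of 0.01 whose sign varied with the setting.

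Other interferon-related genes are given by list. Of the guanylate-binding proteins, large GTPases that act on the same vacuoles, 9 of 9 tested rose in ID8, where 25.4% of all genes did. The median log2 fold change of the list was 2.45. Gbp2 (2.23), Gbp9 (2.78), Gbp6 (2.45) and Gbp3 (2.39) had the smallest p-values. Gbp10 had 0 counts in every ID8 wild-type library, passed the filter on low counts only through the knockout libraries, and was at least 6.27-fold higher in knockout against a floor of 3 counts per library, and the median is 2.45 with it at that bound too. In KPC 2 of 10 rose by edgeR, Gbp8 (1.55, adjusted p = 0.0276) and Gbp9 (0.75, adjusted p = 0.0267), where 6.67% of all genes rose. The median was 1.42 beside -0.0124 over all genes tested. There were 8 without wild-type replicate 4, 1 without wild-type replicate 1 or 3, 0 without knockout replicate 3, 4 or 5 or wild-type replicate 2 or 5, and 0 with the muscle covariate. Gbp9 was the 1 of 10 genes of this list whose change differed between lines (log2 difference -2.02, SE 0.288, edgeR interaction adjusted p = 0.000232). That share is below the 21.8% of all genes tested.

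Of 13 interferon receptor, kinase and transcription factor genes tested in ID8, 9 rose and 1 fell (median log2 fold change 0.34). Of all genes tested 25.4% passed as higher and 25.5% as lower. Irf9, a factor of the type I response, rose by 1.08 on the log2 scale, Irf1 by 0.40 and the interferon-gamma receptor chain gene Ifngr2 by 0.53. Ifngr1, the ligand-binding chain, fell by 0.16. In KPC 5 of 14 rose, namely Irf1 (0.99, edgeR adjusted p = 0.017), Jak2 (0.41), Irf8 (1.12), Socs1, a feedback inhibitor (1.13), and Tyk2 (0.37). The median was 0.31, and 6.67% of all genes tested rose. There were 7 without wild-type replicate 4, 1 or 2 without knockout replicate 1, 3, 4 or 5 or wild-type replicate 1, 2 or 5, 3 without wild-type replicate 3, and 0 with the muscle covariate. The changes of Irf9 and Ifngr2 differed between lines, by -0.80 and -0.54 on the log2 scale (edgeR interaction adjusted p = 0.0252 and 0.00315). These were 2 of 14 tested, a share below the 21.8% of all genes. Ifng was the only listed gene among 8 interferon ligands searched, and it passed the count filter in neither line alone.

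The autophagy-related conjugation and ubiquitin genes that act with the GTPases at vacuoles changed little. In ID8 3 of 15 rose and 2 fell (median log2 fold change 0.09), shares below the 25.4% and 25.5% of all genes tested. The ubiquitin ligase gene Trim21 (0.62), itself interferon-inducible, and Atg7 (0.20) rose. The ATG8 family genes Map1lc3b and Gabarapl2 fell by 0.20 and 0.24 on the log2 scale. In KPC 1 of 15 rose, Gabarap (0.26, edgeR adjusted p = 0.0368), a share near the 6.67% of all genes, and 0 passed with the muscle covariate or without any 1 library other than knockout replicate 2. Gabarapl2 was the 1 of 15 genes of this list whose change differed between lines (0.40, SE 0.0757, edgeR interaction adjusted p = 0.00179). That share too is below the 21.8% of all genes tested.

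**Figure D4:**
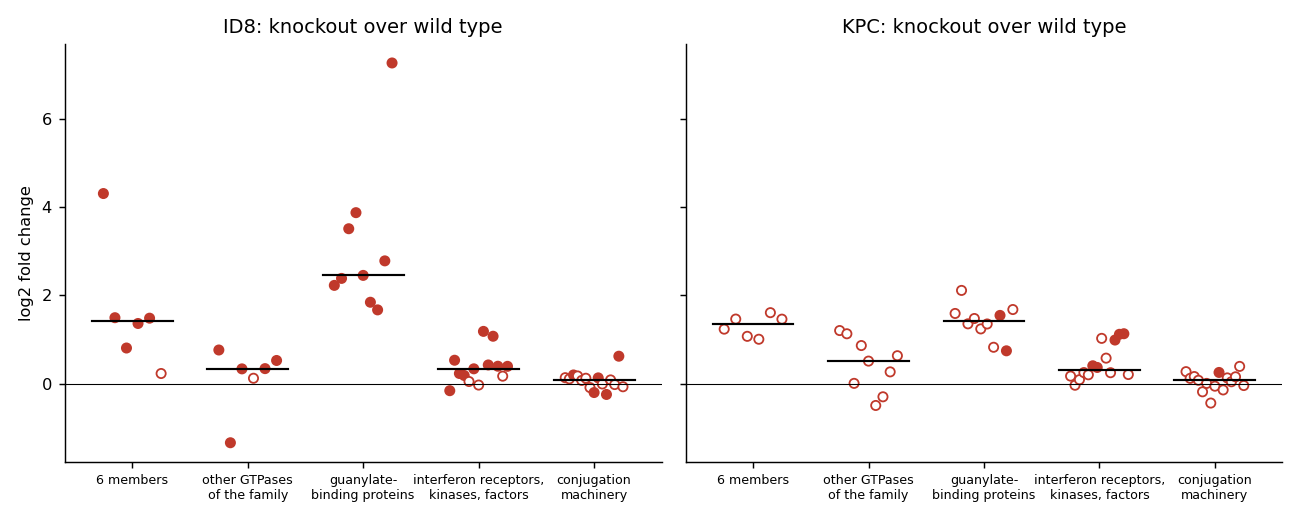
Log2 fold changes of knockout over wild type in ID8 and in KPC for the genes of 5 lists, with 1 point per tested gene, filled for an edgeR adjusted p under 0.05, and a bar at the list median. The highest ID8 point is Gbp10, a fitted value against 0 wild-type counts, and the medians are 1.42 for the 6 members in ID8 and 1.35 in KPC, and near 0 for the conjugation machinery in both.

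Across the 10 KPC libraries, the genes whose log2 CPM was most like the mean of the 6 scaled members included Gbp2 (Pearson r = 0.997), Gbp3, Gbp5, Gbp6 and Gbp4 (r = 0.991), out of 12886 genes ranked. Spearman's rho was 0.964 to 1.0 for these genes, and with genotype means removed r was 0.986 to 0.994. Each member had an r of 0.988 to 0.998 with the mean that it is part of. In the same measure the T cell and NK cell markers had r of 0.672 to 0.944, the macrophage markers 0.0452 to 0.833 and the muscle markers -0.493 to -0.232. The genes were picked for this likeness, so the values are a description, and all points share the same 10 libraries. These 5 genes rose in ID8 by edgeR, with log2 fold changes of 2.23 (Gbp2, adjusted p = 5.85e-14) to 3.88 (Gbp5, adjusted p = 1.62e-10). In KPC they had 1.24 to 1.59 and none passed by edgeR (adjusted p of 0.142 to 0.219).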

How the data were processed

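The values the authors deposited are expected counts per gene, for which the submitters' processing notes name HISAT, RSEM 1.2.8 and GRCm39 (mm39). The columns keep their own totals, so no scaling had been applied. All 16 columns were matched to a labelled sample. Between 7.92% and 8.96% of values per table are not whole, and expected counts were rounded before testing. Where a table lacks a gene, its count was set to 0. Levels and tests used edgeR 4.0.16 under R 4.3.3: TMM factors, the filterByExpr filter, a robust quasi-likelihood F test, and Benjamini-Hochberg adjusted p-values over every gene tested, at 0.05. ID8 and KPC were modelled separately, and the interaction in all 16 libraries. The SE is approximate, taken as log2 fold change over the root of F. Alternatives included DESeq2 1.42.0 and limma 3.58.1 (voom), for which the share of all genes called was not counted. The procedure was tested on simulated data that gave every gene of a line the same spread and changed only genes well above the floor. That test therefore does not cover Iigp1 in ID8 or the wide spread of the members in KPC wild type. No libraries of a group agreed within sampling noise. The p-values measure the spread between these samples. Members, lists and rules were chosen with earlier results of these data known. Genes named are all listed family genes, up to 4 called genes of smallest p per list and comparison, 5 of the 6 genes most like the members, and Trp53bp1. Results of 1 further gene are not reported here. Exceptions named after their values were seen are Ifngr1, Gbp10, Tyk2 and single marker genes. Gene order and promoters come from GRCm38.p6, so coordinates are given for promoter windows only. Whether reads were counted by strand is not stated in the labels.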

Additional observations from a re-analysis of the deposited data

Results flagged for a closer look

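Among the other family genes in KPC groups of 5, a single library stood far from the others in 2 cases, and chance flags about 1 in 20 groups. Gm5431 had 5.30 CPM in wild-type replicate 4, far above the other wild-type libraries. 9930111J21Rik2 had 2.47 CPM in knockout replicate 2, far below the other knockout libraries. The knockout effect on Irgc1 differed between the lines by a log2 difference of 3.48 (SE 0.899, edgeR interaction adjusted p = 0.0124). It had 16 counts over the knockout and 40 over the wild-type libraries in ID8, and 15 over the knockout and 3 over the wild-type libraries in KPC, with 0 to 15 counts in any 1 library. Irgc1 passed the filter on low counts only through the ID8 wild-type libraries, where it was highest, and was too low to be tested in KPC alone. The difference is therefore a description only. No value of the 6 members met these criteria.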

How the results depend on the processing

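In ID8, 5 members passed, and 5 or 6 under every alternative run and when each library was left out, except the joint fit of the 4 groups with 0. In KPC 0 members passed, against 1 with DESeq2, 6 with limma-voom, 1 with the replicate block, 1 in the joint fit and 4 without libraries of high Acta1, and 0 to 5 when each library was left out, with 5 without wild-type replicate 4. For the interaction 0 passed, 1 with limma-voom and 0 when each library was left out. Members' log2 fold changes within a line kept their sign under every alternative run. Interaction differences near 0 changed sign, to 0.73 for Igtp and 0.18 for Irgm2 with limma-voom and to 0.28 for Igtp with the replicate block. Leaving out each library gave -0.27 to 0.63 for Igtp, -0.55 to 0.13 for Irgm2 and -0.13 to 0.90 for Tgtp1. In KPC, Irgq had -0.0079 with limma-voom, -0.0124 without libraries of high Acta1 and -0.0415 to 0.0887 when each library was left out. Apart from shared spread and fewer libraries, the cause was not tested. Same-numbered samples did not deviate together throughout (correlations of -0.111 to 0.136 in ID8 and -0.536 to 0.587 in KPC). In KPC, replicate 2 had 0.587, replicate 4 had 0.277 and replicate 5 had -0.536. Whether the numbers mark pairs was not settled, so the block is an alternative only, and no sample order was crossed. Members under 3 counts per library, as Iigp1 in ID8 wild type, are limited by depth.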
